A study of Mus musculus with 42 samples.

Results

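The comparison is of forestomach from mice given the low dose of benzo(k)fluoranthene (BkF), a member of the polycyclic aromatic hydrocarbons, with forestomach from vehicle-treated mice. Arrays were chosen by their sample titles alone: 3 forestomach arrays of the low dose (D1, mice 7, 8 and 9) and 4 of the vehicle control (D0, mice 1 to 4), which are 7 of the 14 forestomach arrays and 7 of the 42 arrays in the series. All animals were adult male Muta™Mouse of about 11 weeks, a transgenic strain that carries a lacZ reporter for mutation assays, and all were gavaged daily for 28 days. The D0 mice received olive oil only and the D1 mice 25 mg BkF per kg body weight per day in olive oil. Tissue was taken 72 hours after the last dose, and total RNA came from random sections of it. Sample RNA was labelled with Cy5 and hybridised on 2-colour Agilent mouse arrays against a Cy3-labelled reference pooled from 11 mouse cell lines, with no dye swap. Each value is the log2 ratio of the sample to this reference, so a value of 0 means the level of the reference, and differences are D1 minus D0. The probes measured 25305 features in forestomach, which hold 13526 named genes.

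The mouse forestomach is the proximal, non-glandular part of the stomach and is lined by a keratinised stratified squamous epithelium. Its basal cells express Krt5, Krt14 and Trp63, its suprabasal cells switch to keratins such as Krt4 and Krt13, and the uppermost cells build a cornified envelope from loricrin, sciellin, periplakin and small proline-rich proteins, which transglutaminases crosslink. The glandular stomach begins at the limiting ridge directly beside it and carries acid-secreting parietal cells (Atp4a, Atp4b), pepsinogen-secreting chief cells and mucous pit cells (Gkn1, Gkn2, Tff1). Polycyclic aromatic hydrocarbons bind the aryl hydrocarbon receptor (AhR), which pairs with Arnt on DNA elements that contain the letters GCGTG and drives Cyp1a1 and Cyp1b1.

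The promoters below are those of 3 genes of the cornified layer or of keratinocytes that were low in D1, beside those of Cyp1a1 and Cyp1b1, the best known AhR target genes. Each is the RefSeq sequence (GRCm38.p6) around the gene's start (300 bases, of which the last 50 follow the start), 5′ to 3′ on the gene's strand, with matches on either strand in capitals. The capitals mark the AhR core named above, or the element of the AP-1 factors of keratinocytes, whose letters are TGACTCA. They were chosen after the values and the matches were seen, and the windows of Tmprss11a, Serpinb11, Serpinb5 and Serpinb2, genes that were also low in D1, held neither set of letters.
Scel (chr14:103513091-103513390, plus strand): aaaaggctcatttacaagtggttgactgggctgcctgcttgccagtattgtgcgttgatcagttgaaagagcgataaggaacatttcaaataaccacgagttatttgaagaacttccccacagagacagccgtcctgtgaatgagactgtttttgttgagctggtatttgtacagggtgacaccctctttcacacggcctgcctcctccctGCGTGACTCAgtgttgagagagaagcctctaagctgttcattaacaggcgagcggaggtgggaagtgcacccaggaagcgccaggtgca
Il1f8 (chr2:24152922-24153221, plus strand): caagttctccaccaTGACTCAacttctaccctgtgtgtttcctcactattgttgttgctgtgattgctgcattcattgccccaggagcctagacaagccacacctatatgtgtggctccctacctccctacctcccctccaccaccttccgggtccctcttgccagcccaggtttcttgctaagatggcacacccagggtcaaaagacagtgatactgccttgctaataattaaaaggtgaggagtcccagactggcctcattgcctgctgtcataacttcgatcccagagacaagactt
Sprr2d (chr3:92338890-92339189, plus strand): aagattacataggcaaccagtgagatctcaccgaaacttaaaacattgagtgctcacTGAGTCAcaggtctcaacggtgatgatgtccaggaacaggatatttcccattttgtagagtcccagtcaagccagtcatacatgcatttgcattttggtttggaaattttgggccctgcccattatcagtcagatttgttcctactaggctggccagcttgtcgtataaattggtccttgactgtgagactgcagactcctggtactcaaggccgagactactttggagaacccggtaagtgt
Cyp1a1 (chr9:57697363-57697662, plus strand): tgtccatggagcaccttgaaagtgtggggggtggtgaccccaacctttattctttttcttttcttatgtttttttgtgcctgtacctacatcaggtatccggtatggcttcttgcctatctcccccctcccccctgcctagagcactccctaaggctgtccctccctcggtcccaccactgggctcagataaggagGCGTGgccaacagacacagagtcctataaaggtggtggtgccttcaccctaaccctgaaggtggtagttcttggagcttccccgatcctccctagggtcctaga
Cyp1b1 (chr17:79715012-79715311, minus strand): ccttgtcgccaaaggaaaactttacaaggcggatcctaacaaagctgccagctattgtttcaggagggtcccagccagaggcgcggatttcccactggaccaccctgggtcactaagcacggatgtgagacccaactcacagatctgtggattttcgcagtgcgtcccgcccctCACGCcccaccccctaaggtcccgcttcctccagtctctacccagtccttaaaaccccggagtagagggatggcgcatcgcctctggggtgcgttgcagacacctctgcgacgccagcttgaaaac

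In the Scel window the AhR core and the AP-1 element overlap and begin 39 and 36 bases before the start. The Il1f8 and Sprr2d windows held the AP-1 element and no AhR core, whereas the Cyp1a1 and Cyp1b1 windows held the AhR core 54 and 76 bases before the start and no AP-1 element. Promoters of chromosome 18 were left out of the shares that follow. The AhR core was in 32.4% of 32851 RefSeq promoters of this length and in 47.5% of those of the genes tested. It was in 46.7% of the 392 promoters of genes lower in D1 by the rule given below, near the share among genes tested. These 392 promoters cover 313 genes, and not Dsc1, Dsc3, Dsg1b and Dsg1c, which lie on chromosome 18. The AP-1 element was in 5.20% of all these promoters, in 4.18% of those of genes tested and in 31 of the 392, or 7.91%. Of the 88 promoters of genes higher in D1 by that rule, 51.1% held the AhR core and 5.68% the AP-1 element. A match is a description of the letters in the window and not of binding.

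The forestomach samples differed in how much RNA of glandular stomach they held, also within the vehicle group. A glandular stomach score, the mean over 13 glandular genes of the log2 ratio less its median over the 14 arrays, was -4.72 in vehicle mouse 1 and -4.50 in vehicle mouse 4, but 0.40 and 0.29 in vehicle mice 2 and 3. The D1 arrays scored 0.56, 0.45 and 0.11. Low-dose tissue therefore always held glandular RNA, whereas vehicle tissue fell into a pair with it and a pair with little of it.

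Gkn1, a gastrokine of pit cells, was 0.47, 5.35, 4.74 and 0.14 in vehicle mice 1 to 4 and 5.81, 5.19 and 4.82 in the D1 mice. Atp4a, the catalytic subunit of the gastric proton pump, was 0.01, 6.39, 6.09 and -0.24 in D0 and 5.74, 5.72 and 5.36 in D1. Both probes were well above background on 2 of the 4 vehicle arrays and on all 3 low-dose arrays. Gkn2 and Tff1 were well above background on all 4 vehicle arrays, at 0.94 and 2.30 for Gkn2 in mice 1 and 4, and whether this came from glandular cells was not tested. That pair is called low in glandular RNA below. Over the 13 genes the median difference from the vehicle group was 2.55. It was 0.13 against vehicle mice 2 and 3 and 5.11 against vehicle mice 1 and 4. Most of these probes were well above background on only 2 of the 4 vehicle arrays, so 5.11 is in large part a distance from background and not a measured size. The difference of the group scores (2.51) gave p = 0.286 in an exact two-sided permutation test, in which 3 against 4 arrays cannot go below 0.0571. The score of 7 pit mucous genes, some of which are in the glandular score, did not overlap between the groups. It was 0.31 to 0.66 in D1, 0.06 to 0.13 in vehicle mice 2 and 3 and -4.11 to -3.56 in vehicle mice 1 and 4 (exact two-sided permutation p = 0.0571, and 0.543 adjusted over 19 scores). Of these 7 genes, Gkn2, Tff1 and Foxq1 were higher at an unadjusted p under 0.05, beside 4.26% of all probes, and 1 with the glandular score as a covariate, beside 1.78%.

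Marker genes of pancreas, and in part of liver, differed between the same vehicle pairs, and the tissue this RNA came from was not tested. Clps, the pancreatic colipase, was 0.62, 6.66, 6.90 and 0.27 in D0 and 6.90, 6.86 and 6.02 in D1, and Apoa1, the main apolipoprotein made by liver, was 0.12, 5.58, 4.85 and 0.05 in D0 and 5.06, 4.53 and 3.71 in D1. The pancreatic acinar score was -1.60 to -1.47 in the low pair of vehicle arrays, 1.07 to 1.33 in the other vehicle pair and -0.25 to 1.18 in D1. The liver score was -1.12 to -1.03, 1.18 to 1.55 and 0.16 to 0.51 in the same order, so D1 lay between the vehicle pairs, and 6 of 8 liver genes were lower in D1 than in the vehicle group. In contrast, scores of smooth muscle were -0.12 to 0.44 in D0 and -1.08 to -0.02 in D1.

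**Figure D1:**
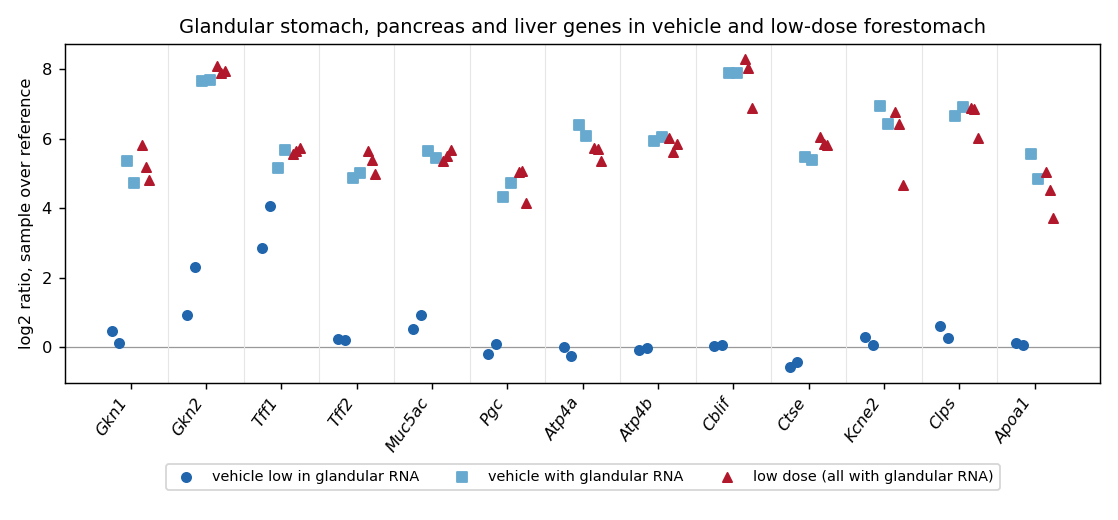
Log2 ratio of sample over reference (vertical axis) for marker genes of glandular stomach, pancreas and liver (horizontal axis) on the 7 arrays, each point 1 array, coloured by group. The 3 low-dose arrays lie far above vehicle mice 1 and 4 for Gkn1, Atp4a, Clps and Apoa1, and near vehicle mice 2 and 3 for Gkn1 and Atp4a.

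The vehicle arrays with glandular RNA were both hybridised on slide 4, which held no D1 array, and had the largest shares of spots well above background among the 7 (43.3% and 46.8%, against 29.4% to 38.5% on the other 5). The vehicle arrays low in glandular RNA shared slide 1 with mouse 7 and slide 3 with mouse 9, and mouse 8 was on slide 2 with no vehicle array. A comparison matched for glandular RNA is thus a comparison between slides, and a comparison within slides is one between unlike tissue contents. The dose, the slide and the tissue content cannot be told apart fully in these 7 arrays, so the leading results are given against each vehicle pair as well.

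In the model over all 14 forestomach arrays, no probe was called between D1 and D0 (0% of 25305, limma with Benjamini-Hochberg adjusted p of at most 0.05 and at least 1.5-fold; lowest adjusted p = 0.259). At an unadjusted p under 0.05, 4.26% of probes were higher and 7.87% lower in D1. With the glandular score as a covariate the count was again 0% (lowest adjusted p = 0.693), and the shares at an unadjusted p under 0.05 were 1.78% higher and 4.61% lower. Among the 9 arrays that held glandular RNA (vehicle mice 2 and 3, all D1 and 4 arrays of higher doses), 31 probes were called lower in D1 (0.123%) and 0 higher. In a fit of the 7 arrays alone, 38 probes were called higher (0.15%) and 295 lower (1.17%). The 2 smaller fits rest on fewer arrays for the spread, and the calls were made there and not in the fit of all 14 arrays. D1 and D0 arrays did not overlap for 5.62% of probes in the higher direction and for 9.21% in the lower.

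Among genes of the upper layers of the squamous epithelium, many of the cornified envelope and some of the suprabasal list were lower in D1, though none was called in the fit of 14 arrays. Of 16 cornified envelope genes listed, 14 passed the filter on dim probes, and 8 of these had an unadjusted p under 0.05 in the lower direction and 0 in the higher, beside 7.87% and 4.26% of all probes. The D1 and D0 arrays did not overlap for 8 of the 14, all lower, beside 9.21% of all probes. Their median difference was -0.87, against -0.02 over all probes, and -0.58 with the glandular score in the model, where 12 of 14 were lower. It was -0.84 against vehicle mice 2 and 3 and -0.84 against vehicle mice 1 and 4. A list that was chosen with earlier results of these arrays known is a description and no independent evidence. In whole tissue, fewer squamous cells and less RNA per squamous cell cannot be told apart.

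Scel encodes sciellin, a precursor of the cornified envelope, and was 6.21, 6.07, 5.55 and 5.96 in D0 and 2.70, 2.55 and 4.01 in D1, a difference of -2.86 ± 0.74 (SE). The lowest vehicle array exceeded the highest D1 array by more than the range of the vehicle group. Sprr2d, a small proline-rich envelope protein, was 5.13, 5.91, 5.38 and 4.66 in D0 and 3.79, 1.78 and 4.42 in D1. Tgm1, the membrane-bound transglutaminase that crosslinks the envelope, was 5.07, 5.86, 5.19 and 4.77 in D0 and 2.97, 3.44 and 4.55 in D1. Mouse 9 was nearest to the vehicle arrays for all 3 of these genes. Ppl, which ties the envelope to desmosomes, differed by -1.54 and Rptn, an envelope protein of the S100-fused type, by -2.12, both without overlap. Not all of the envelope genes were low: Lor, the major envelope protein of keratinised epithelia, was 6.83 to 7.18 in D0 and 6.43 to 6.76 in D1 (difference -0.42, limma unadjusted p = 0.211), and Cnfn differed by 0.01.

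One layer down, 5 of 13 suprabasal genes had an unadjusted p under 0.05 in the lower direction and 0 in the higher, beside 7.87% and 4.26% of all probes, with a median difference of -0.32. With the glandular score 3 were lower at that p, beside 4.61%, and the median was -0.45. The suprabasal score overlapped between the groups, at -0.53 to -0.21 in D1, 0.46 to 0.62 in vehicle mice 2 and 3 and -0.90 to -0.54 in vehicle mice 1 and 4 (exact two-sided permutation p = 0.571). Krt4, the type II keratin of suprabasal cells in mucosal squamous epithelia, was 6.37, 6.63, 6.23 and 6.02 in D0 and 3.22, 1.75 and 4.80 in D1. Its mean difference was -3.18 against vehicle mice 2 and 3 and -2.94 against vehicle mice 1 and 4, so its size hardly turned on which vehicle pair was used. Krt13, its type I partner, differed by -0.47, from 4.44 to 4.95 in D0 to 4.16 to 4.23 in D1. Serpinb5 (maspin) was 5.93 to 6.30 in D0 and 4.75 to 5.32 in D1, a difference of -1.08 ± 0.24 (SE) and again without overlap.

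Of 10 basal genes tested, 1 had an unadjusted p under 0.05 in each direction, beside 4.26% of all probes higher and 7.87% lower, and the median difference was -0.14. The difference between the layers was not tested. The 2 genes were Itgb4, a hemidesmosomal integrin, at 2.71 to 3.81 in D0 and 3.60 to 4.31 in D1 (0.71), and Krt15, at 3.33 to 4.01 and 3.25 to 3.38 (-0.41). Krt5 was 3.38 to 3.83 in D0 and 3.50 to 3.88 in D1, Krt14 was 3.23 to 3.78 and 3.04 to 3.47, and Trp63, the master transcription factor of stratified epithelia, was -0.17 to 0.45 and -0.27 to 0.29. The groups overlapped for these genes too. Over the 10 genes the differences ran from -1.03 to 0.87. For 1 other gene of the 10, D1 lay above all D0 arrays, beside 5.62% of all probes. The test of these differences cannot show that the levels were the same.

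**Figure D2:**
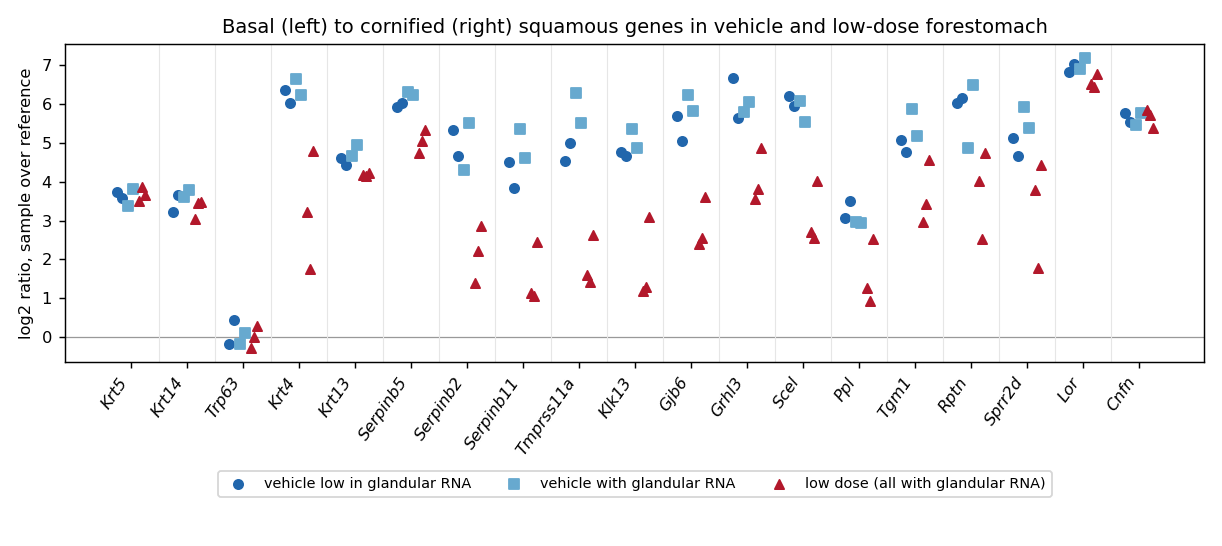
Log2 ratio of sample over reference (vertical axis) for basal, suprabasal and cornified genes of squamous epithelium (horizontal axis), each point 1 of the 7 arrays, coloured by group. Krt5, Krt14 and Trp63 overlap between groups, whereas the D1 points of Krt4, Scel, Serpinb11 and Tmprss11a lie below every vehicle point.

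A further set held the genes that passed an unadjusted p under 0.05 and 1.5-fold both with and without the glandular score, with D1 and D0 arrays that did not overlap. Of all probes, 2.33% passed in the lower direction and 0.379% in the higher, which are 410 and 71 genes. Within them, genes were ordered by the moderated t with the score in the model.

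Tmprss11a, a membrane-anchored serine protease of squamous epithelia, was 4.54, 6.30, 5.52 and 5.00 in D0 and 1.60, 1.42 and 2.63 in D1. The difference was -3.46 ± 0.69 (SE) without and -3.16 with the score. Serpinb11, a clade B serpin, was 4.51, 5.36, 4.61 and 3.84 in D0 and 1.14, 1.06 and 2.45 in D1. Il1f8 encodes the interleukin 36 beta cytokine of keratinocytes and was 4.25, 3.54, 3.47 and 3.13 in D0 and 0.80, 0.25 and 1.49 in D1. In these 3 genes the D1 arrays lay more than 1 log2 unit below the lowest vehicle array, and all 3 were called both among the 9 arrays with glandular RNA and among the 7 arrays, while the adjusted p in the fit of 14 arrays was 0.259. Against vehicle mice 2 and 3 and then mice 1 and 4, the differences were -4.03 and -2.89 for Tmprss11a, -3.44 and -2.63 for Serpinb11 and -2.66 and -2.84 for Il1f8. Sprr2j-ps, a pseudogene of the small proline-rich cluster, differed by -3.41.

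Scgb1a1, a secretoglobin best known from airway club cells, was 4.75, 4.61, 4.32 and 3.91 in D0 and 2.27, 1.77 and 3.11 in D1. Metrnl, a secreted meteorin-like factor, was 0.61 to 1.41 in D0 and -0.73 to -0.31 in D1, and Lypd2, of the Ly6 family, 1.11 to 1.99 and 0.58 to 0.68. Blzf1, a Golgi protein, differed by -1.32. Sp6, a zinc finger transcription factor of epithelia, was not well above background on any D1 array and was at least 1.96-fold lower there. Anp32a, an acidic nuclear phosphoprotein, differed by -1.48 at its brightest probe, but by 0.10 at its other probe, so the direction of the gene is uncertain.

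Among the genes higher in D1 by the same rule, Igsf8, an immunoglobulin superfamily membrane protein, was -1.99 to -1.55 in D0 and -1.17 to -0.71 in D1. Foxq1, a forkhead factor of gastric pit cells, was 1.57, 4.00, 4.38 and 2.37 in D0 and 5.97, 5.60 and 4.75 in D1. Its vehicle values follow the glandular split as well, and the difference was 2.36 without and 1.15 with the score. S100a6, a calcium-binding protein, was -2.09, -0.25, -0.71 and -1.77 in D0 and 0.80, 0.69 and 0.67 in D1, and Lmo4, a LIM-domain cofactor, differed by 1.97 (1.03 at its other probe), both again with the glandular pair nearer to D1. With the score these differences were 0.90 and 0.92. Tnip1, a binding partner of the A20 ubiquitin editor, differed by 1.20 (0.67 at its other probe). Ndrg1, a stress-responsive gene, differed by 1.44, and by 0.78 with the score, and Atp5g3, a subunit of mitochondrial ATP synthase, by 1.12 and 0.70. Eif1, which helps select start codons, differed by 0.72, though by 0.12 at its other probe, and Sqstm1, the autophagy receptor p62, by 0.60.

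Some of the low genes belong to gene families, and in 5 of the 8 families looked at the low members share a chromosome. In the Tmprss11, Sprr, kallikrein and desmosomal cadherin families every member tested lies on that chromosome, low or not. A shared chromosome thus says nothing about their low members. The clade B serpins tested lie on chromosomes 1 and 13. Families were picked after the values were seen and get no test. Of 16 clade B serpins tested, 7 passed the rule in the lower direction (2.33% of all probes), and all 7 lie on chromosome 1. Serpinb3c was 6.14 to 7.10 in D0 and 2.68 to 4.26 in D1, and Serpinb3a was 5.24 to 6.51 and 2.29 to 3.27. Of 5 Tmprss11 proteases 3 passed, all on chromosome 5, of 12 Sprr genes 4, all on chromosome 3, and of 11 kallikrein-related peptidases 6, all on chromosome 7. Klk8 was 5.33 to 5.96 in D0 and 2.78 to 4.41 in D1. Sprr2 and Serpinb3 members are close copies of each other, and signal shared between their probes was not tested.

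Genes of cell junctions were among them. Of 7 desmosomal cadherins, 4 passed in the lower direction (Dsc1, Dsc3, Dsg1b and Dsg1c), beside 2.33% of all probes, while Dsc2 and Dsg2 differed by 1.94 and 1.57 with overlap between the groups. Dsc1 was 2.49 to 4.50 in D0 and 0.52 to 1.71 in D1, and Gjb6, a gap junction connexin, was 5.04 to 6.24 and 2.40 to 3.60, while Gjb1, another connexin, differed by 0.86 with overlap. Of 3 grainyhead factors, regulators of the epithelial barrier, 2 passed and Grhl2 (-0.07) did not. Grhl3 was 5.64 to 6.67 in D0 and 3.56 to 4.88 in D1, and Grhl1 was 4.37 to 5.06 and 2.21 to 3.76. Of 32 keratins 3 passed in the lower direction, Krt4, Krt32 and Krt72, beside the same 2.33%. For 5 keratins (Krt8, Krt18, Krt19, Krt20 and Krt42) D1 lay above all D0 arrays, beside 5.62% of all probes, and these did not pass the rule. No member of these families passed in the higher direction.

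The size of these differences varied between mice and slides. Within slide 1 (mouse 7 less mouse 1) the median difference of the cornified genes was -1.02, with 11 of 14 lower, and within slide 3 (mouse 9 less mouse 4) it was -0.26, with 14 of 14 lower. For Krt4 the differences within slides were -3.16 and -1.22, and for Tmprss11a -2.94 and -2.37.

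**Figure D3:**
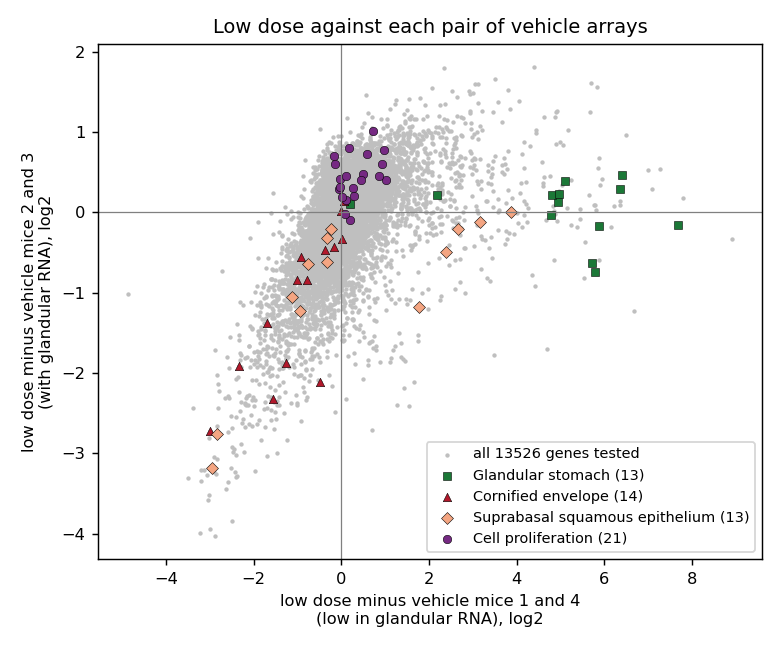
Difference of D1 from vehicle mice 2 and 3 (vertical axis, log2) against the difference of D1 from vehicle mice 1 and 4 (horizontal axis, log2) for each gene tested; both axes use the same 3 D1 arrays. Glandular genes spread to the right, at a median of 0.13 on the vertical axis and 5.11 on the horizontal one, while the lowest coloured points, Krt4 and Scel, lie below -2 on both axes. The suprabasal points on the right include Krt16 and Krt17.

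The other forestomach arrays were set beside the low dose because the glandular split runs through them too. The cornified envelope score was 0.42, 0.43, 0.53 and 0.24 in vehicle mice 1 to 4 and -0.63, -1.01 and -0.27 in D1, without overlap (difference -1.04, exact two-sided permutation p = 0.0571, the smallest this design allows, and 0.543 after adjustment over 19 scores). Of the 7 arrays of the medium and high doses, the 3 low in glandular RNA scored 0.26 to 0.46, within the vehicle range, and the 4 with glandular RNA scored -1.34 to -0.18. Among dosed mice, the low cornified scores were thus found on arrays with glandular RNA, and no D1 array low in glandular RNA exists to set against them. Vehicle mice 2 and 3, on slide 4, were the arrays with both glandular RNA and a high cornified score. Slide 4 also held mouse 15 of the medium dose, with glandular RNA and a cornified score of -0.52.

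Among the 7 medium-dose and high-dose mice, Tmprss11a was also higher on the arrays low in glandular RNA, at 4.81, 1.54, 2.17 and 3.38 in medium-dose mice 11, 12, 13 and 15 and at 5.47, 3.69 and 4.94 in high-dose mice 16, 17 and 20. Mice 11, 16 and 20 are those low in glandular RNA. In the vehicle group the order was the reverse, with 4.54 and 5.00 in the pair low in glandular RNA and 6.30 and 5.52 in the other. The median difference of the cornified genes from the same vehicle mice was -0.87 in D1, -0.93 in the medium-dose mice and -0.23 in the high-dose mice, and these 3 values share their controls. The part of tissue content in the low-dose difference was examined by the covariate fits and the fit of 9 arrays given above, and not otherwise tested.

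**Figure D4:**
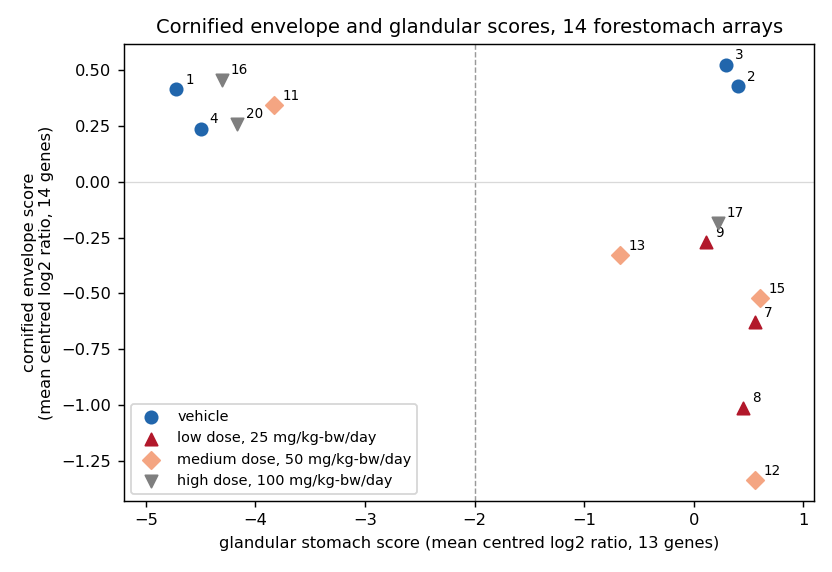
Cornified envelope score (vertical axis, log2) against glandular stomach score (horizontal axis, log2) for the 14 forestomach arrays, each point 1 mouse with its number, coloured by dose; the dashed line at -2 divides arrays low in glandular RNA from the rest. The 3 D1 points lie at -0.27 or below on the vertical axis, the 4 vehicle points at 0.24 or above, and the 3 dosed arrays far to the left lie with the vehicle arrays.

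Many differences shrank once glandular content was in the model. By the rule for such genes, which took the largest differences among genes with an unadjusted p under 0.05 whose size fell to under 0.5 of itself with the score, Krt18, a keratin of simple epithelia, was -3.78, 0.36, 0.31 and -4.11 in D0 and 2.57, 1.95 and 1.16 in D1. Its difference of 3.70 became 0.97 with the score. Gkn2, which is itself 1 of the 13 genes of the score, so that a smaller difference is built in, went from 3.33 to 1.05. Cyp2d26, a cytochrome P450, went from 3.1 to 1.16, Rnf128, a ubiquitin ligase, from 2.91 to 0.82, and Bcas1 from 2.48 to 0.77. The Cyp2d26 probe was well above background on only 2 of the 4 vehicle arrays, so its size is in part a distance from background. In the lower direction Xlr4a went from -1.39 to -0.68, Plin2, a lipid droplet coat protein, from -1.35 to -0.67, Angptl4, an inhibitor of lipoprotein lipase, from -1.23 to -0.59, Gpnmb from -1.21 to -0.57 and Fnbp1 from -1.20 to -0.59 (-0.67 and -0.63 without the score at its other probes). In all, the difference fell in this way, or changed sign, for 152 genes higher in D1 and 26 lower. These counts are not shares. Some of these genes, such as Plin2 and Rnf128, kept an unadjusted limma p under 0.05 with the score.

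No gene of the AhR battery was called at this dose. Of 11 genes tested, 0 had an unadjusted p under 0.05 in the higher direction, beside 4.26% of all probes, and 1 in the lower, Ugt1a6a (-0.48), a conjugating enzyme, beside 7.87%. The median difference was 0.06, and the largest was that of Nqo1 (1.17, unadjusted p = 0.09), whose values are given with the Nrf2 targets. Cyp1a1 was 0.60, 0.38, -0.01 and -0.39 in D0 and 0.12, 1.93 and 0.13 in D1, a difference of 0.58 ± 0.85 (SE). The probe was well above background on 1 of the 4 vehicle and 1 of the 3 D1 arrays, mouse 8 alone lay above the vehicle range, and the difference without mouse 8 was -0.02. Cyp1b1 was -1.04 to -0.59 in D0 and -1.51, -0.39 and -0.51 in D1, with a difference of 0.03. Ahrr, the AhR repressor, differed by 0.06, Tiparp, an AhR-induced ADP-ribosyltransferase, by -0.08 (-0.35 at its other probe), Ahr itself by 0.22 and its partner Arnt by -0.09 (0.25 at its other probe). Aldh3a1, an aldehyde dehydrogenase, was 2.11 to 2.53 in D0 and 2.59 to 2.68 in D1 (0.29), and Cyp2s1 and Nfe2l2 differed by -0.01 and 0.16.

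At the medium and high doses Cyp1a1 differed from the same vehicle arrays, of which 1 of 4 measured it above background, by 2.24 and 3.24, Cyp1b1 by 1.08 and 1.25, and Ahrr by 0.63 and 1.23. In lung of the same D1 mice, Cyp1a1 was 3.96, 9.28 and 7.10 in mice 7, 8 and 9, and 2.09 to 3.29 in the 4 vehicle mice. In liver it was 4.61 in mouse 8 and -0.02 in mouse 9, with vehicle values of -0.09 to 0.23. Mouse 8 thus had the highest Cyp1a1 value of its group in each of the 3 tissues, over 3 mice in lung and forestomach and 2 in liver. In forestomach and liver the probe was not well above background in the other D1 mice, nor on any vehicle array in liver.

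**Figure D5:**
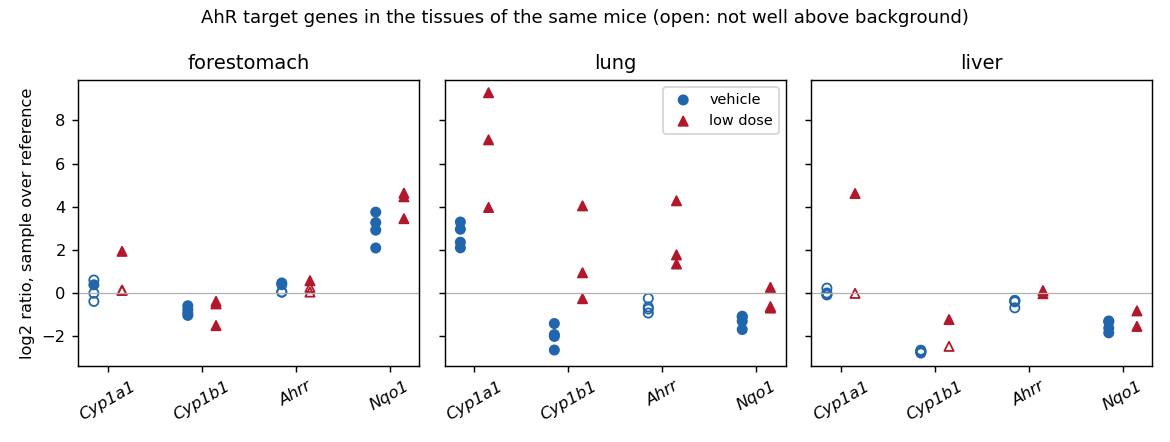
Log2 ratio of sample over reference (vertical axis) for Cyp1a1, Cyp1b1, Ahrr and Nqo1 (horizontal axis) in forestomach, lung and liver of the vehicle and D1 mice, each point 1 array, open where the probe was not well above background. In forestomach the groups overlap for all 4 genes and the Cyp1a1 point of mouse 8 is at 1.93, whereas in lung the Cyp1a1 points of D1 lie between 3.96 and 9.28.

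Targets of Nrf2, the oxidative stress factor, were divided. Of 16 tested, 5 had an unadjusted p under 0.05 in the higher direction and 2 in the lower, beside 4.26% and 7.87% of all probes, with a median of 0.36. With the score these were 2 higher and 1 lower, beside 1.78% and 4.61%, and the median was 0.12. Gclc, the rate-limiting enzyme of glutathione synthesis, was 0.08 to 0.92 in D0 and 1.37 to 1.45 in D1, and Pgd, of the pentose phosphate pathway, was 1.30 to 1.45 and 2.04 to 2.44. Nqo1, a quinone reductase that is a target of AhR too, was 2.91, 3.75, 3.26 and 2.09 in D0 and 4.62, 4.46 and 3.45 in D1, and its difference of 1.17 was 0.33 with the score. Hmox1, haem oxygenase, went the other way, at 0.72 to 1.38 in D0 and -1.54 to -0.41 in D1 (difference -2.03, and -1.42 with the score), but its other probe differed by -0.52.

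Of 19 p53 targets tested, 2 were higher and 4 lower at an unadjusted p under 0.05, beside 4.26% and 7.87% of all probes, with a median of -0.05. With the score these were 2 and 2, beside 1.78% and 4.61%. D1 and D0 did not overlap for 4 higher genes (Ccng1, Ddit4, Pmaip1 and Bbc3) and 3 lower ones (Perp, Phlda3 and Sesn1), beside 5.62% and 9.21% of all probes. Cdkn1a (p21) differed by -0.05, Mdm2 by 0.10 and Bax by -0.14, each with overlap, and Bbc3 (Puma) by 0.29. Ccng1 was -1.43 to -0.43 in D0 and -0.30 to 0.27 in D1, and Ddit4, an inhibitor of mTORC1, differed by 0.98. Pmaip1 (Noxa) differed by 1.19 without overlap but at an unadjusted limma p of 0.0629. Perp, a p53 target that is also a desmosomal protein of stratified epithelia, was 5.21 to 6.43 in D0 and 4.05 to 4.45 in D1, and Phlda3 and Sesn1 differed by -1.12 and -0.82.

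Of 21 genes of cell proliferation tested, 5 were higher in D1 at an unadjusted p under 0.05, 0 were lower and none was called, beside 4.26% of all probes higher. The sign of the difference was positive in 21 of 21, beside 12105 of 25305 probes. With the score it was positive in 19, beside 11977 probes, and 3 passed that p, beside 1.78% of all probes. The median was 0.28, and 0.27 with the score. Plk1, a mitotic kinase, was between -2.37 and -1.69 in D0 and -1.12, -1.08 and -1.15 in D1, and the other 7 forestomach arrays lay between -2.68 and -1.46. Mki67, the Ki-67 antigen, was -3.06 to -2.26 in D0 and -1.91 to -1.70 in D1. Ccna2 and Ccnb2, cyclins of the late cell cycle, differed by 0.76 and 0.66, and Birc5, survivin, by 0.66. Within slides the median of the list was -0.04 for mouse 7 less mouse 1, with 12 of 21 negative, and 0.44 for mouse 9 less mouse 4, with 0 negative. At the medium and high doses the median was 0.13 and -0.08.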

How the data were processed

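RNA of 42 samples was measured on 2-colour arrays. Per the file headers, the authors deposited scanner files made with Feature Extraction 10.7.3.1 for forestomach, which hold each spot's median intensity in both channels on a linear scale and the software's log10 ratio of red over green. The authors also deposited LOWESS-normalised log2 ratios of all arrays in 1 table. These correlated with the values used here at 0.995 to 0.999 per array, with slopes of 0.987 to 0.997 and medians of -0.043 to -0.032, so scale and direction are red over green in log2 and genes were not centred.

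Here the median intensities were used without background subtraction and normalised by loess within arrays (limma 3.58.1, R 4.3.3). Control and outlier spots were left out, spots of a probe averaged, and the 25305 of 55681 probes well above background in the sample channel on at least 3 forestomach arrays tested. Through RefSeq accessions 27235 probes (48.9%) were named, and the brightest probe stood for a gene. The MAANOVA test of the published methods was not used. limma's model of the 14 forestomach arrays with 4 dose groups gave D1 minus D0, without and with the glandular score as a covariate. Calls needed an adjusted p of at most 0.05 and at least 1.5-fold. Named genes were every tested member of the AhR, p53 and glandular lists by values or counts. To these were added the 10 highest and 10 lowest by moderated t among those passing both fits. Next were the 5 largest differences in each direction among genes whose difference fell to under 0.5 of its size, or changed sign, with the score. Last were the 2 lowest p of each other list, of which not all are printed. Other genes, such as Krt4, Sprr2d, Tgm1 and Gclc, are printed outside these rules. Members, 35 gene and marker lists and rules were chosen with earlier results of these data known. Bounds for dim probes come from Cy5 intensities normalised by loess and Aquantile, and dye bias can enter them. Exact tests used scipy 1.17.1. The number of arrays limits the precision, and p-values measure the spread between mice. Scripts were tested on simulated data. Alternatives were the background correction, scaling, filter, scanner and authors' ratios, covariates, slide as a block, fewer arrays and leaving out each array. The build behind the array design is not given in the sources used here.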

Additional observations from a re-analysis of the deposited data

Results flagged for a closer look

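In 3 of 71 genes examined (the named genes with an unadjusted p under 0.05, and 5 AhR genes) 1 of the 4 vehicle arrays lay apart from the other vehicle arrays by Dixon's criterion, no more than the 5% of such groups that chance alone would give, so the count is at the chance level. Ddit4 was -1.71 in vehicle mouse 3 and -2.39 to -2.37 in the others. Phlda3 was 1.29 in vehicle mouse 1 and 0.86 to 0.91 in the others. Mt1, a metallothionein, was 0.45 in vehicle mouse 3 and -0.39 to -0.27 in the others. The D1 arrays lay outside the whole vehicle range for all 3 genes, at -1.54 or above for Ddit4, -0.70 to 0.37 for Phlda3 and 1.21 to 1.34 for Mt1. Groups of 3 arrays were not examined in this way.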

How the results depend on the processing

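No paired analysis was possible because the vehicle and low-dose forestomach arrays share no mouse number. The count of called probes was 0 in the fit of all 14 arrays and 0 with the glandular score. It was 333 in the 7 arrays alone, 402 in the 7 arrays with the glandular score and 31 without the 5 arrays low in glandular RNA; these fits have fewer arrays, and the cause of the difference was not tested. It was 0 with slide as a block, with normexp, Aquantile (which leaves log ratios as they are by construction), the scanner's or the authors' ratios, no filter or the strict filter, and with a muscle score or the share of bright spots (chosen after seeing the data) in the model. Leaving out 1 array gave 0 to 1 calls without the score (1, without D1 mouse 9) and 0 to 13 with it (13 without D0 mouse 4, 1 without D1 mouse 9). Of the 71 genes followed (named genes with an unadjusted p under 0.05, and 5 AhR genes), 22 were called in the 7 arrays and 4 (Il1f8, Serpinb11, Sp6 and Tmprss11a) in the 9 with glandular RNA. Among these 71, signs changed in Cyp1b1, Ahrr, Cyp1a1 and Tiparp. Among named genes outside them, the score turned Nfe2l2 to -0.15, Atp4a, a gene of the score, to -0.66, Clps to -0.29 and Apoa1 to -0.82, among others. Cyp1b1 was -0.10 with glandular and muscle scores and -0.33 with slide as a block, and ran from -0.17 to 0.39 when single arrays were left out, below 0 without D0 mouse 2, D0 mouse 3, D1 mouse 8 or D1 mouse 9. Ahrr was -0.13 both with the score in 7 arrays and without the 5 low arrays, and ran from -0.082 to 0.18, below 0 without D0 mouse 1, D0 mouse 4 or D1 mouse 8. Cyp1a1 ran from -0.019 (without D1 mouse 8) to 0.88, and Tiparp from -0.16 to 0.026 (without D1 mouse 9). The difference of the glandular scores was 1.64 to 3.35 when single arrays were left out.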

Other observations

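Keratins of the activated epithelium differed between the vehicle pairs. Krt17 was 0.91, 4.03, 4.06 and 0.59 in vehicle mice 1 to 4 and 3.31, 4.13 and 4.33 in D1. Krt16 was 1.01, 3.71, 3.94 and 0.90 in D0 and 3.15, 4.07 and 3.63 in D1, and Krt6a was 0.30, 2.85, 3.35 and 0.11 and 2.43 to 2.81. For all 3 the D1 arrays lay with vehicle mice 2 and 3. They are members of the suprabasal list, in which Krt4 was low in all D1 arrays.

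Of 26 respiratory chain genes, 25 had a positive difference, beside 12105 of 25305 probes. At an unadjusted p under 0.05, 5 were higher and 1, Ndufa4, was lower, beside 4.26% and 7.87% of all probes, with a median of 0.42 that was 0.15 with the glandular score, where 0 of them had a p under 0.05 in the higher direction. Of 22 cholesterol synthesis genes, 5 were lower at that p and 0 higher, beside the same shares (Pmvk -0.75, Tm7sf2 -1.79), with a median of -0.22, and -0.24 with the score. All 20 ribosomal protein genes had a negative difference, 3 of them at that p, beside 7.87% of all probes lower at it and 13200 of 25305 with a negative difference, and the median was -0.16, while with the score 16 were negative and the median was -0.08. All 13 smooth muscle genes had a negative difference and 0 reached that p, with a median of -0.53 (-0.32 and 12 negative with the score) and with Myh11 at 4.86 to 5.41 in D0 and 4.46 to 4.76 in D1. White fat had a median difference of -0.91, which was -0.12 with the score, -0.07 against vehicle mice 2 and 3 and -1.54 against mice 1 and 4. Of its 6 genes, 1 was lower at an unadjusted p under 0.05 in both fits and 0 were higher, beside 7.87% and 4.26% without the score. It was Fabp4, which differed by -1.41 against vehicle mice 2 and 3 and by -1.47 against mice 1 and 4. Medians without and then with the score were -0.11 and 0.03 for collagens and matrix, -0.24 and -0.15 for clock genes, -0.21 and -0.01 for fatty acid oxidation, and 0.12 and 0.15 for excision repair. They were 0.16 and -0.05 for heat shock genes, -0.06 and 0.01 for immediate early genes and 0.19 and 0.05 for metallothioneins. Without the score, genes lower at that p were 2 of 18 for collagens, 1 of 13 for clock genes, 2 of 15 for fatty acid oxidation and 2 of 15 for repair. For heat shock 2 of 17 were lower and 1 higher, for immediate early genes 1 of 14 was lower, and for metallothioneins 1 of 4 was higher. Of all probes, 7.87% were lower and 4.26% higher. Immune lists followed, with medians without and with the score of 0.16 and 0.16 for MHC class II, 0.09 and 0.33 for interferon-stimulated genes, -0.10 and -0.01 for chemokines, 0.04 and 0.15 for T cells, 0.12 and 0.31 for B cells, and -0.30 and -0.36 for macrophages and mast cells. Each had 0 genes at an unadjusted limma p under 0.05 without the score, and MHC class II had 1 with it. Gastric lists had medians of 0.95 and, with the score, -0.27 (parietal cells), 2.52 and -0.05 (chief cells), 2.38 and 0.13 (pit cells), and 1.31 and -0.09 (endocrine cells). Each of these lists shares genes with the score, so a smaller median with it is in part built in. The other marker lists had 0.17 and -0.49 (pancreas), -0.17 and -0.94 (liver), -0.37 and -0.37 (enteric nerve and glia), -0.06 and -0.02 (skeletal muscle), and -0.31 and -0.38 (red cell precursors).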
